A study of Rattus norvegicus with 12 samples.

Results

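The microRNA gene rows of a rat brain RNA-seq count table were compared between animals that had received a viral vector and animals that had not. A row was taken when its gene name began with Mir and a digit, or with Mirlet, and 456 of the 17337 rows of the table met this rule. Of these, 213 held no read in any of the 12 libraries and 243 held at least 1. Only 29 had enough reads to be tested. One of the rows, Mir155hg, names a long host transcript and not a hairpin.

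The tissue was brain (the series calls it middle brain) of male Sprague-Dawley rats at postnatal day 60. Rats with bile duct ligation (BDL) and an adeno-associated virus (AAV) vector for GFP, a fluorescent marker protein (AAV-GFP), gave 3 libraries. Ligated rats given a vector for VEGFC, which makes lymphatic vessels grow (AAV-VEGFC), gave 3. Ligated rats with no vector (BDL) gave 3, and sham rats, neither ligated nor injected with vector as far as the labels say, gave 3. Ligation, which blocks bile outflow and serves as a model of liver disease that affects the brain, had lasted 4 weeks in the first 3 groups. The vector solution, 20 µl, went into the cisterna magna, where cerebrospinal fluid collects below the cerebellum. The labels give no injection of fluid alone and do not name the serotype or promoter of either vector. Injection and vector therefore cannot be told apart. The design text gives 3 rats per group, nothing else ties a library to an animal, and p-values measure only the spread between these libraries. The AAV libraries below are the 6 of AAV-GFP and AAV-VEGFC, and the libraries without vector are the 6 of BDL and sham.

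A microRNA is cut out of a long primary transcript by the nuclear enzyme Drosha with its partner Dgcr8, exported by Xpo5, trimmed by Dicer1 and loaded into an Argonaute protein, which it guides to messenger RNAs by the seed, a short stretch near its 5′ end. Many microRNA hairpins lie inside introns of protein-coding genes or of long noncoding RNAs and are released from the host transcript. In brain, the imprinted Dlk1-Dio3 region carries a dense array of them beside the noncoding RNA Meg3. The libraries here were made with a kit for long RNA. A read on a microRNA row is thus a fragment of a primary or host transcript that spans the hairpin, and no mature microRNA was measured.

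The mature sequences below, from RefSeq on the GRCr8 assembly, belong to the rows on which the comparison turns. They are written 5′ to 3′, with the seed (bases 2 to 8) in capitals. The first 11 belong to rows called lower in the AAV libraries, and the last 4 to tested rows that were not called.
Mir770, rno-miR-770-5p: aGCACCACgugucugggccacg
Mir1188, rno-miR-1188-5p: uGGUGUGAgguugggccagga
Mir410, rno-miR-410-3p: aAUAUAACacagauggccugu
Mir421, rno-miR-421-3p: aUCAACAGacauuaauuggg
Mir374, rno-miR-374-5p: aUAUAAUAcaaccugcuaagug
Mir3064, rno-miR-3064-3p: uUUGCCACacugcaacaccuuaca
Mir2985, rno-miR-2985: uGUUAUAGuaucccaccuaccc
Mir186, rno-miR-186-5p: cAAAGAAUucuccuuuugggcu
Mir1249, rno-miR-1249: aCGCCCUUcccccccuucuuca
Mir24-1, rno-miR-24-3p: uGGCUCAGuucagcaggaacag
Mir128-1, rno-miR-128-3p: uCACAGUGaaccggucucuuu
Mir22, rno-miR-22-3p: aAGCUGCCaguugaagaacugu
Mir21, rno-miR-21-5p: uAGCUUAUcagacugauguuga
Mir132, rno-miR-132-3p: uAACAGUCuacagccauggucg
Mir212, rno-miR-212-3p: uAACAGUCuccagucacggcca
Mir132 and Mir212 share the seed AACAGUC, and no other pair among these 15 shares a seed. All 456 row names were found in RefSeq, 428 by symbol and 28 by a synonym.

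Library totals lay between 40296297 and 51669067 counts. The microRNA rows held 488 to 1841 of them per library, so each value below rests on few reads. The tissue label was set beside markers. The 6 markers listed for forebrain neurons summed to 3990 to 6350 CPM (reads scaled to the library total) in AAV libraries. In libraries without vector they summed to 4830 to 5590 CPM. They include Snap25, Gad1 and Gad2, which are not limited to the forebrain. Slc17a7, also among them, held 1250 to 2030 CPM and 1410 to 1620 CPM. The 6 markers of midbrain monoamine neurons summed to 7.69 to 11.1 CPM and 6.04 to 8.5 CPM. Th, among these, held 1.02 to 1.54 CPM and 0.652 to 1.7 CPM. Which region was taken was not tested. Some libraries stood apart. Sham 2 held 245 CPM of Ttr, a choroid plexus gene, AAV-GFP 1 held 47.8 CPM of Oxt, a hypothalamic hormone gene, and AAV-VEGFC 3 held 27.8 CPM of Gh1, a pituitary hormone gene. AAV-VEGFC 1 had the lowest sum of the 6 markers listed for forebrain neurons, 3990 CPM. Its 5 oligodendrocyte markers summed to 18000 CPM, against 10400 to 13700 CPM in the other AAV libraries. Of all libraries, it differed most from the others of its own group. Ribosomal RNA was higher in the AAV libraries. Rn18s, the 18S ribosomal RNA, lay between 4250 and 11900 CPM in AAV libraries, against 1360 to 2990 CPM in libraries without vector. Rn45s, its precursor, lay between 504 and 1180 CPM, against 6.33 to 263 CPM. Against BDL, Rn18s was called higher with AAV-GFP and with AAV-VEGFC (edgeR, adjusted p = 0.00535 and 0.00233). Rn45s was called with neither (adjusted p = 0.144 and 0.0788). All 5 endothelial markers were called higher in the AAV libraries, with sums of 377 to 485 CPM against 212 to 315 CPM. Against BDL, 2 were called higher with AAV-GFP and 3 with AAV-VEGFC. Of all tested genes, 13.1% were called higher in the AAV libraries. Against BDL the share was 0.988% with AAV-GFP and 2.91% with AAV-VEGFC. All 4 red-cell markers were called higher as well, with sums of 753 to 1220 CPM against 108 to 803 CPM. Against BDL, however, none of them was called with either vector. All 4 were called higher in BDL than in sham (beside 0.109% of all genes called in either direction). Of 5 microglia markers, 3 were called higher in the AAV libraries and none against BDL with either vector. The part of ribosomal RNA, vessel cells or blood in the results below was not tested. In bulk tissue, fewer cells of a type and less RNA per cell cannot be told apart.

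Summed over all 456 rows, which needs no filter on low counts, the microRNA rows were less abundant in every AAV library than in every library without vector. The sum was 12.3 ± 1.16 CPM in the AAV libraries and 32.1 ± 2.78 CPM in the libraries without vector (SD, n = 6 each), a ratio of 0.384. It lay between 11.1 and 14.3 CPM in the AAV libraries and between 27.7 and 36.0 CPM in the others. By group it averaged 12.5 ± 1.68 CPM with AAV-GFP, 12.2 ± 0.686 CPM with AAV-VEGFC, 30.9 ± 2.8 CPM in BDL and 33.2 ± 2.68 CPM in sham (SD, n = 3 each). Both vector groups thus lay apart from both groups without vector, and within each side the groups overlapped. Without Mir770, the row with most reads over the 12 libraries, the sums were 11.8 ± 1.02 CPM and 25.9 ± 1.99 CPM. The sum is a description and carries no test.

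**Figure D1:**
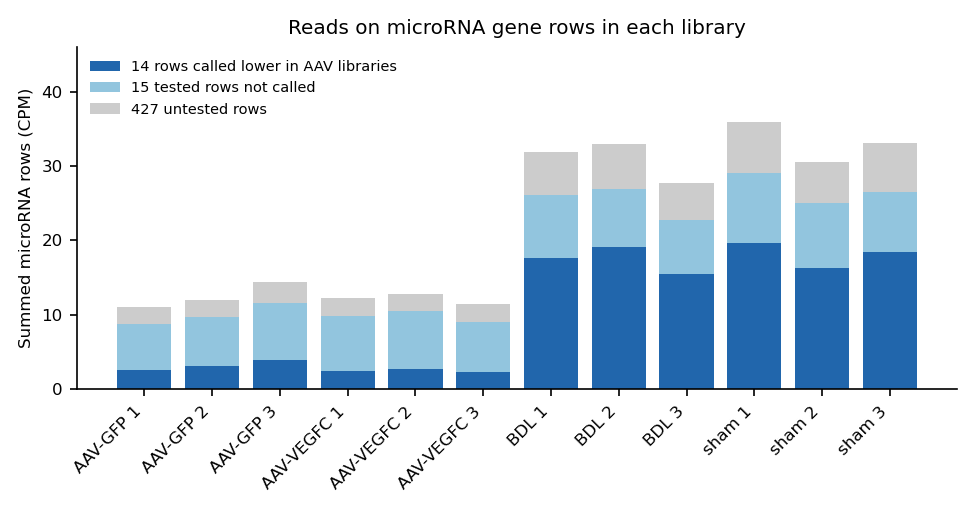
Summed CPM of the microRNA rows in each of the 12 libraries, stacked by the 14 rows called lower in AAV libraries, the 15 tested rows not called and the 427 untested rows. The 6 AAV libraries reach 11.1 to 14.3 CPM and the 6 libraries without vector 27.7 to 36.0 CPM. The 15 tested rows not called differ less between the sides than the other parts of the stack. Beside the 14 called rows this follows from the split, which was made by the test of the same comparison.

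The rows were then split by where their hairpins lie. Rows on the same strand inside a long noncoding RNA, 80 in number, summed to 1.23 ± 0.355 CPM in AAV libraries and 8.75 ± 1.22 CPM in libraries without vector. The 144 rows on the same strand inside a protein-coding gene summed to 4.47 ± 0.477 CPM and 11.8 ± 0.879 CPM. The 108 rows inside no annotated gene summed to 3.74 ± 0.73 CPM and 5.35 ± 0.722 CPM (SD, n = 6 each). The highest AAV library of this class, at 4.89 CPM, lay above the lowest library without vector, at 4.2 CPM. That AAV library was AAV-VEGFC 2, and the single row Mir632 held 1.62 CPM of its sum. The other AAV libraries held 3.91 CPM or less. The 56 rows that lie only opposite a gene held 0.176 ± 0.0637 CPM and 0.236 ± 0.0828 CPM. The ratio of AAV libraries to the others was 0.141 for noncoding hosts, 0.378 for protein-coding hosts, 0.699 for no host and 0.744 for the opposite strand. Single rows weigh heavily on these ratios. Mir770 alone held 0.544 CPM in AAV libraries and 6.13 CPM in the others of the noncoding class. Mir3064 held 1.19 CPM and 4.89 CPM of the protein-coding class. For 68 further rows, among them Mir2985 and Mir568, the strand of the surrounding gene is not given in the table used, and these summed to 2.69 ± 0.601 CPM and 5.88 ± 0.294 CPM, a ratio of 0.458.

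Row by row, AAV libraries against libraries without vector, 14 of the 29 tested rows fell and none rose, at an adjusted p under 0.05 by edgeR (quasi-likelihood F test, Benjamini-Hochberg over all 12850 tested genes). That is 48.3% of the tested rows, beside 15.2% of all tested genes called lower and 13.1% called higher. The median log2 fold change of the 29 rows was -1.07, beside 0.01 for all genes, and stayed at -1.07 with the rows at 0 in a vector group set to the bound that 3 reads give. In each of the 14 rows every AAV library lay below every library without vector, a pattern held by 10.4% of all tested genes, and no tested row showed the opposite pattern, held by 7.92%. The filter bears on these counts. It asked for more than 0.213 CPM in at least 3 libraries, and 10 of the 14 rows passed it in no AAV library, so that they could enter the test only through the libraries where they were high and had to differ. Among the 14 tested rows that passed the limit in at least 3 AAV libraries, 4 fell (Mir770, Mir3064, Mir2985 and Mir3593). With no filter, 30 of the 243 rows with reads were called lower (12.3%), beside 13.2% of all genes in that fit, so the higher share among the tested rows depends on the filter. With at least 1 CPM in 3 libraries, 4 of 6 rows were called lower, beside 16.4% of all genes. Ligation differs between the 2 sides, since the sham rats were not ligated. The comparisons with BDL alone are given further on.

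**Figure D2:**
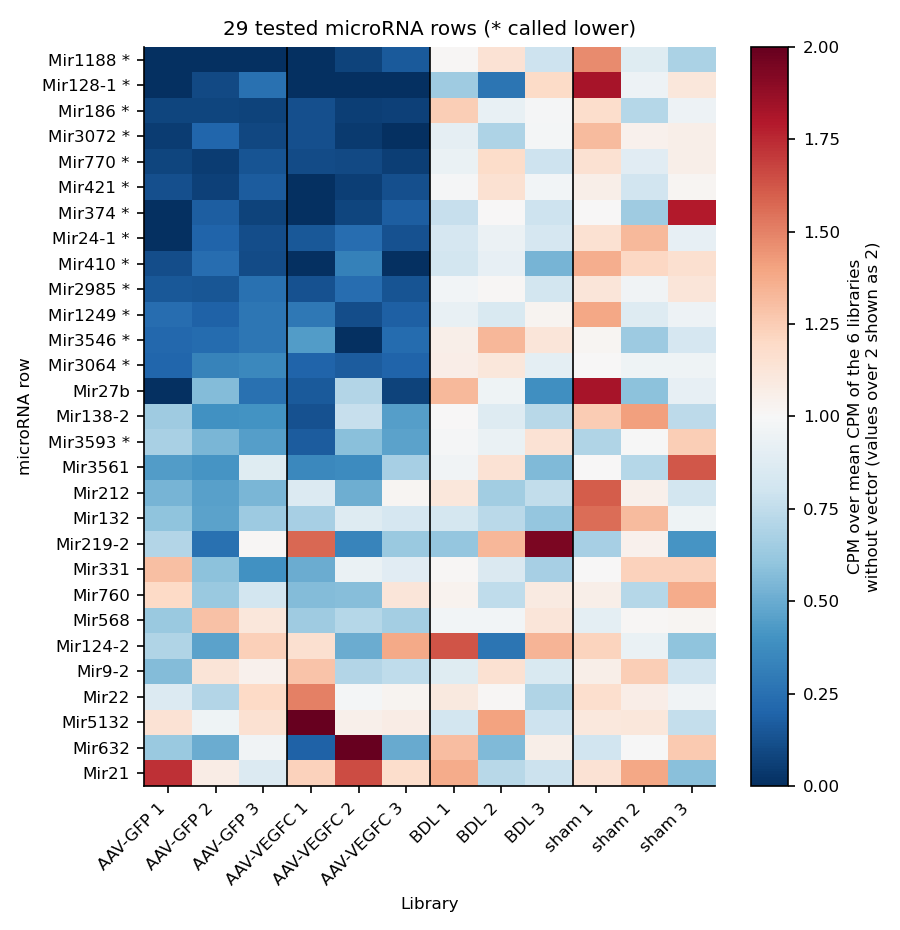
CPM of each of the 29 tested rows in each library (columns) over the mean CPM of that row in the 6 libraries without vector, from 0 (dark blue) to 2 or more (dark red), ordered by log2 fold change, with an asterisk for the 14 rows called lower. The called rows are blue across all 6 AAV libraries, and the lowest rows of the plot, among them Mir22 and Mir21, show no such block.

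The rows of the Dlk1-Dio3 region held fewer reads in every AAV library than in any other. This imprinted interval, whose microRNAs are expressed from the maternal chromosome and are abundant in neurons, holds 59 of the 456 rows, and 41 of those had reads. They summed to 0.707 ± 0.168 CPM in AAV libraries and 7.89 ± 1.21 CPM in libraries without vector (SD, n = 6 each), from 198 and 2246 reads. Without Mir770 the other 58 rows summed to 0.163 ± 0.0475 CPM and 1.76 ± 0.343 CPM, from 45 and 502 reads, a ratio of 0.0922 that is close to the 0.0896 of the whole region. Of the rows in the region, 4 had enough reads to be tested, and these fell, namely Mir770, Mir1188, Mir410 and Mir3072. Of them only Mir770 passed the filter in AAV libraries too, and the other 3 entered the test only through libraries without vector.

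Mir770, which lies inside the noncoding RNA Meg3, had more reads over the 12 libraries than any other microRNA row. It held 25, 14 and 42 reads in the AAV-GFP libraries, 25, 30 and 17 in the AAV-VEGFC libraries, 264, 340 and 242 in the BDL libraries and 361, 266 and 271 in the sham libraries. The highest library with vector thus held fewer reads than any library without vector. The levels were 0.554 ± 0.262 CPM with AAV-GFP, 0.534 ± 0.14 CPM with AAV-VEGFC, 5.94 ± 1.2 CPM in BDL and 6.32 ± 0.828 CPM in sham (SD, n = 3 each), and the log2 fold change of AAV libraries over libraries without vector was -3.48 ± 0.24 (SE, adjusted p = 4.27e-06).

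Mir1188 held no read in any AAV-GFP library, 0, 1 and 2 reads in the AAV-VEGFC libraries, 13, 15 and 11 in BDL and 21, 12 and 8 in sham. Per library size this was 26.1-fold lower in the AAV libraries, with a 95% exact interval of 8.62 to 129 that covers counting error only (adjusted p = 0.00102). Mir3072 held 1, 4 and 2 reads with AAV-GFP, 2, 1 and 0 with AAV-VEGFC, 18, 14 and 21 in BDL and 29, 22 and 19 in sham (log2 fold change -3.57 ± 0.49, adjusted p = 0.00043). Mir410, a hairpin of the distal cluster, held 0 to 3 reads in the AAV libraries and 5 to 13 in the others (-2.74 ± 0.62, adjusted p = 0.0086). In all 3 rows the sides did not overlap. Among rows of the region too sparse to test, Mir341 had 0 reads in all AAV libraries and 32 in the others, Mir409 had 0 and 18, and Mir412 had 0 and 13. With 3 reads over the AAV libraries as the floor, these were at least 10.4-fold, 5.87-fold and 4.24-fold lower.

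Both rows inside Ftx, a noncoding RNA of the X-inactivation centre, fell. Mir421 held 2, 1 and 3 reads with AAV-GFP, 0, 1 and 2 with AAV-VEGFC, 16, 19 and 17 in BDL and 19, 14 and 15 in sham (-3.42 ± 0.46, adjusted p = 0.000395). Mir374 held 0 to 2 reads in the AAV libraries and 8 to 19 in the others (-3.39 ± 0.62, adjusted p = 0.00282). Together the 2 rows held 15 reads in the 6 AAV libraries and 171 in the 6 others.

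Rows that lie within protein-coding genes fell as well. Mir3064, in the gene of the RNA helicase Ddx5, held 48, 73 and 87 reads with AAV-GFP, 39, 42 and 45 with AAV-VEGFC, 240, 256 and 220 in BDL and 250, 230 and 196 in sham. The level was 1.45 ± 0.388 CPM with AAV-GFP, 0.937 ± 0.0856 CPM with AAV-VEGFC, 5.02 ± 0.534 CPM in BDL and 4.75 ± 0.115 CPM in sham (SD, n = 3 each), with a log2 fold change of -2.07 ± 0.15 over the 12 libraries (adjusted p = 6.02e-06). The AAV-GFP libraries lay above the AAV-VEGFC libraries in each case, although that difference was not called (log2 fold change of AAV-VEGFC over AAV-GFP -0.63 ± 0.21, adjusted p = 0.948).

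Mir2985, in the gene of the AMPA receptor subunit Gria2 on a strand that the table used does not give, held 18, 16 and 31 reads with AAV-GFP, 12, 29 and 15 with AAV-VEGFC, 108, 115 and 98 in BDL and 138, 114 and 113 in sham (-2.49 ± 0.22, adjusted p = 2.17e-05). Mir186, in the gene of the splicing-related zinc finger protein Zranb2, held 4, 4 and 4 reads with AAV-GFP, 5, 3 and 3 with AAV-VEGFC, 59, 45 and 51 in BDL and 62, 36 and 41 in sham (-3.59 ± 0.29, adjusted p = 1.09e-05). The vector groups overlapped in these rows, and no library with vector reached the range of the others.

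The other called rows of this class had 25 reads or fewer in each library. Mir1249, inside Kiaa0930, held 2 to 5 reads in AAV libraries and 14 to 25 in the others (-2.19 ± 0.35, adjusted p = 0.00125). Mir24-1, which lies in Aopep with Mir23b and Mir27b, held 0 to 4 reads in AAV libraries and 13 to 22 in the others (-2.82 ± 0.47, adjusted p = 0.00158). The same 3-hairpin cluster summed to 0.177 ± 0.113 CPM and 0.791 ± 0.216 CPM (SD, n = 6 each), and Mir27b, with 0 to 11 and 6 to 29 reads, overlapped between the sides and was not called (-1.72 ± 0.69, adjusted p = 0.0815). Mir128-1, a brain-enriched microRNA inside R3hdm1, held 0, 1 and 3 reads with AAV-GFP, none with AAV-VEGFC, 7, 3 and 14 in BDL and 22, 11 and 11 in sham (adjusted p = 0.00477). Its AAV-GFP 3 and BDL 2 libraries both held 3 reads, and they were parted only by library size.

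Of the remaining called rows, Mir3546 held 0 to 5 reads in AAV libraries and 9 to 18 in the others (-2.08 ± 0.51, adjusted p = 0.0131), and Mir3593 held 4 to 20 and 22 to 35 (-1.06 ± 0.32, adjusted p = 0.0301). Mir3593 is the weakest of the 14 calls. It was lost when any of 7 of the 12 libraries was left out, at adjusted p up to 0.0774.

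**Figure D3:**
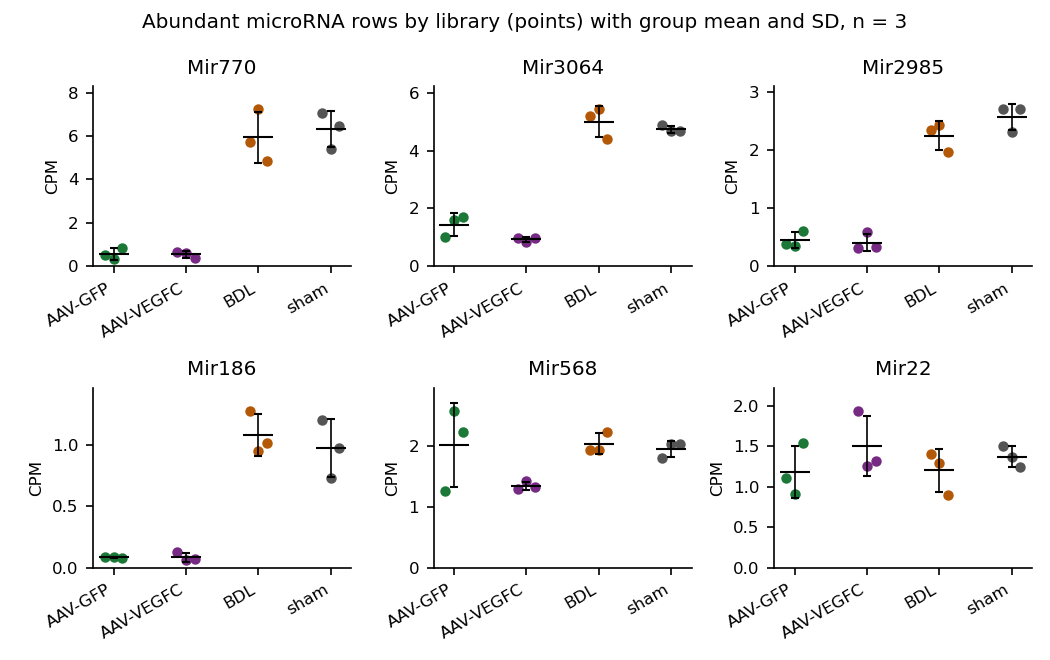
CPM of 6 abundant rows in each library (points) with the mean and SD of each group (n = 3). Mir770, Mir3064, Mir2985 and Mir186 are lower in all 6 AAV libraries than in all 6 others, whereas Mir568 and Mir22 overlap between the sides.

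Not all abundant rows were lower. Mir22, a microRNA of an independent noncoding transcript, held 53, 41 and 78 reads with AAV-GFP, 77, 63 and 60 with AAV-VEGFC, 65, 61 and 45 in BDL and 77, 67 and 52 in sham, and its 4 groups overlapped (0.06 ± 0.20, adjusted p = 0.862). Mir568, within Zbtb20 on a strand not given in the table used, held 60, 116 and 112 reads with AAV-GFP, 51, 71 and 60 with AAV-VEGFC, 89, 91 and 111 in BDL and 92, 99 and 85 in sham (-0.28 ± 0.18, adjusted p = 0.265). The AAV-VEGFC libraries lay below those of BDL and sham in this row, whereas AAV-GFP 2 was its highest library.

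The 4 tested rows with a positive log2 fold change were Mir22, Mir21, Mir5132 and Mir632, and none was called. Mir21, a microRNA induced in reactive glia and injury, held 17, 10 and 9 reads with AAV-GFP, 10, 17 and 11 with AAV-VEGFC, 13, 7 and 8 in BDL and 12, 14 and 5 in sham (0.36 ± 0.36, adjusted p = 0.488). Mir5132, inside Irak1, held 29, 23 and 31 reads with AAV-GFP, 42, 28 and 26 with AAV-VEGFC, 20, 35 and 21 in BDL and 30, 29 and 17 in sham (0.28 ± 0.27, adjusted p = 0.461). The groups of both rows overlapped. Mir632 rested on a single library: AAV-VEGFC 2 held 81 reads, whereas the other 11 libraries held 2 to 16. Its log2 fold change was 0.35 ± 0.68 with that library and -1 without it.

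Mir132 and Mir212, which share a transcript and a seed and are induced by neuronal activity, were not called. Mir132 held 15, 11 and 17 reads with AAV-GFP, 14, 23 and 20 with AAV-VEGFC, 20, 18 and 16 in BDL and 42, 34 and 21 in sham (-0.51 ± 0.25, adjusted p = 0.144). Mir212 held 15, 12 and 16 reads, 20, 15 and 27, 30, 18 and 22, and 48, 30 and 20 in the same order of groups (-0.63 ± 0.29, adjusted p = 0.124). Sham 1 was the highest library of both rows. Of the rows of neuronal microRNAs, Mir9-2 (-0.14 ± 0.27, adjusted p = 0.741) and Mir124-2 (-0.15 ± 0.48, adjusted p = 0.842) were not called either, and their libraries overlapped. Another 6 rows that were not called, Mir138-2, Mir3561, Mir27b, Mir219-2, Mir331 and Mir760, had log2 fold changes between -1.72 and -0.29.

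With ligation held fixed, AAV-GFP against BDL gave 9 rows that fell and none that rose (31.0%, beside 5.2% of all genes lower and 0.988% higher), with a median log2 fold change of -0.95 over the 29 rows. AAV-VEGFC against BDL gave 11 that fell and none that rose (37.9%, beside 7.02% of all genes lower and 2.91% higher), with a median of -1.31. The median of all genes was 0.01 and 0.0. The filter bears on these counts too: 6 of the 9 rows and 8 of the 11 were over its limit in no AAV library. With no filter, 7 of 243 rows were called lower with AAV-GFP (2.88%, beside 4.1% of all genes) and 10 with AAV-VEGFC (4.12%, beside 5.85%). These comparisons share the BDL libraries, so that their overlap is no independent evidence. The same 9 rows fell in both, namely Mir770, Mir3064, Mir2985, Mir186, Mir1188, Mir421, Mir3072, Mir1249 and Mir24-1. Mir128-1 and Mir374 were called with AAV-VEGFC alone, which does not show that the vectors differ in them.

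Side by side, Mir770 had -3.41 ± 0.33 with AAV-GFP (adjusted p = 0.000157) and -3.47 ± 0.33 with AAV-VEGFC (adjusted p = 0.000118), as log2 fold changes over BDL. Mir3064 had -1.79 ± 0.21 (adjusted p = 0.000461) and -2.42 ± 0.22 (adjusted p = 7.83e-05). Mir2985 had -2.32 ± 0.31 (adjusted p = 0.00106) and -2.46 ± 0.31 (adjusted p = 0.000743), and Mir186 had -3.66 ± 0.40 (adjusted p = 0.00032) and -3.68 ± 0.41 (adjusted p = 0.000352). These 4 rows kept their calls in both comparisons under every alternative and without any single library. Mir1188 was at least 13.1-fold lower with AAV-GFP than in BDL, with 3 reads over the group as the floor, and 12.3-fold lower with AAV-VEGFC (95% exact interval 3.91 to 62.2). Mir128-1, at 0 reads with AAV-VEGFC, was at least 7.57-fold lower there than in BDL.

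The count with AAV-GFP was 5 of 31 tested rows without BDL 1 (beside 2.74% of all genes lower) and 5 of 30 without BDL 2 (beside 2.85%). It was 4 of 6 tested rows with at least 1 CPM in 3 libraries (beside 5.82% of all genes). The count with AAV-VEGFC was 6 of 31 without BDL 1 (beside 3.9%) and 6 of 31 without BDL 3 (beside 4.54%). It was 7 of 30 without BDL 2 (beside 4.12%) and 7 of 31 without AAV-VEGFC 3 (beside 6.25%). A fit of those groups alone gave 5 of 25 (beside 2.39%), and at least 1 CPM in 3 libraries gave 4 of 6 (beside 8.14%). The share of all genes called thus moved with the settings too.

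No microRNA row was called between the vectors or between the groups without vector. AAV-VEGFC against AAV-GFP gave none by edgeR (smallest adjusted p 0.948, 2 rows at an unadjusted p under 0.05, and 0.00778% of all genes called). Those 2 rows were Mir3064 and Mir568 (log2 fold change -0.58 ± 0.25). Without sham 2, AAV-GFP 1 and AAV-VEGFC 1 the row Mir3064 was called lower. BDL against sham gave none (smallest adjusted p 0.801, 1 row at an unadjusted p under 0.05, and 0.109% of all genes called). That row was Mir132, at 0.379 CPM in BDL and 0.672 CPM in sham (-0.83 ± 0.35). The median log2 fold change of the 29 rows was -0.02 between the vectors and -0.13 between BDL and sham. At these read numbers small differences were not detectable.

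Among the genes around the hairpins, the noncoding hosts of called rows had the larger fold changes. Meg3, which enhances p53 activity and carries Mir770, fell to 46.9 ± 16.2 CPM in AAV libraries, against 403 ± 40.1 CPM in libraries without vector (log2 fold change -3.11 ± 0.23, adjusted p = 6.22e-06). Ftx fell to 2.19 ± 0.41 CPM, against 12.2 ± 1.72 CPM (-2.48 ± 0.15, adjusted p = 2.02e-06). Both were also called lower against BDL, Meg3 with adjusted p = 0.00023 for AAV-GFP and 0.000168 for AAV-VEGFC and Ftx with 8.33e-05 and 7.76e-05. Of the protein-coding hosts of called rows, 4 passed the test with smaller fold changes: Zranb2 with -0.71 ± 0.07 (adjusted p = 5.78e-05), Gria2 with -0.42 ± 0.08 (adjusted p = 0.00322), R3hdm1 with -0.40 ± 0.08 (adjusted p = 0.00534) and Aopep with -0.38 ± 0.09 (adjusted p = 0.00857). Ddx5, at 736 ± 46.8 CPM against 783 ± 15 CPM, was not called (-0.09 ± 0.05, adjusted p = 0.197), nor was Kiaa0930 (-0.11 ± 0.06, adjusted p = 0.16). Against BDL, Zranb2 was called with both vectors (adjusted p = 0.00551 and 0.00109), Gria2 with AAV-VEGFC (0.00944) but not AAV-GFP (0.195), and R3hdm1 (0.23 and 0.241) and Aopep (0.112 and 0.383) with neither. Slc12a3, a sodium-chloride cotransporter around Mir138-2, which was not called itself, fell to 0.678 ± 0.281 CPM in AAV libraries, against 1.9 ± 0.567 CPM in the others (-1.47 ± 0.28, adjusted p = 0.00353). It was also called lower against BDL with AAV-GFP (adjusted p = 0.0135) and AAV-VEGFC (adjusted p = 0.0296). Zbtb20, around Mir568, was called higher (0.67 ± 0.22, adjusted p = 0.046), but against BDL with neither vector (adjusted p = 0.133 and 0.319).

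**Figure D4:**
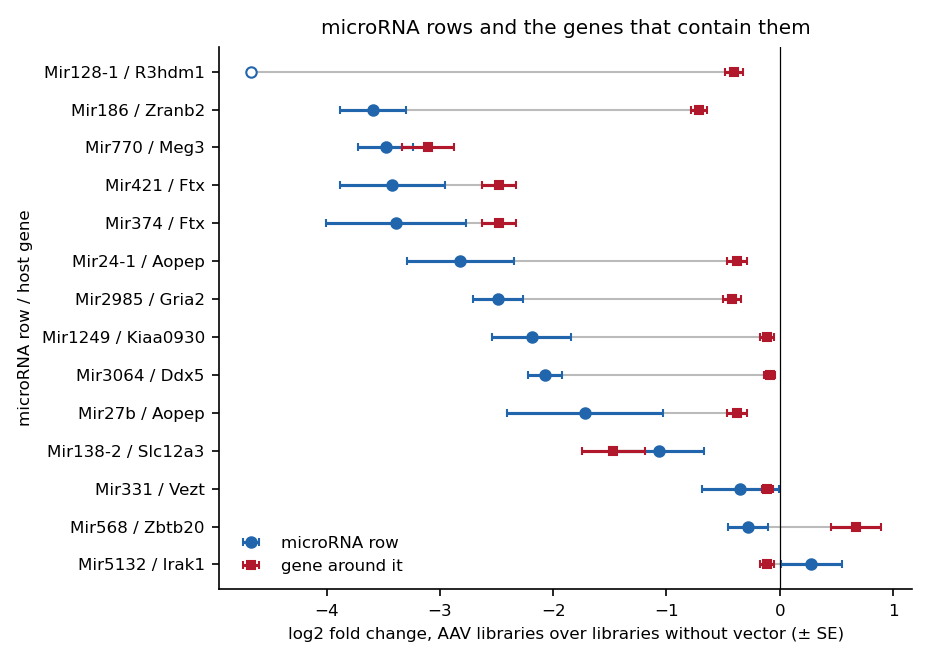
Log2 fold change of AAV libraries over libraries without vector, with SE, for the 14 tested rows whose host gene was also tested (circles, row; squares, host). The open circle is Mir128-1, which had 0 reads with AAV-VEGFC, so that its fitted value depends on the prior count and no error is drawn. Mir770 (-3.48) lies near Meg3 (-3.11), the rows in Ftx (-3.42 and -3.39) lie to the left of Ftx (-2.48), and those in Ddx5, Gria2 and Zranb2 lie farther from theirs.

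Of the 9 called rows with a tested host, 7 had a host that was called lower (beside 15.2% of all genes, and with Ftx counted for both of its rows, so that 6 of 8 different hosts were called), and in all 9 the log2 fold change of the row lay below that of the host. These 9 rows were taken because they were called lower. Among them Mir1249, Mir421, Mir128-1, Mir374, Mir24-1 and Mir186 were over the filter limit in no AAV library. A row fold change below that of the host was thus in part fixed by this choice. The difference between row and host was not tested. The proportions of called rows that follow are of rows taken in the same way. Relative to its host, Mir3064 held 1.12 to 2.4 reads per 1000 reads of Ddx5 in AAV libraries, against 5.75 to 7.09 in libraries without vector. Mir2985 held 0.321 to 0.628 per 1000 reads of Gria2, against 1.6 to 2.16, and Mir186 held 0.447 to 0.861 per 1000 reads of Zranb2, against 3.35 to 5.44. Mir1249 held 0.378 to 0.947 per 1000 reads of Kiaa0930, against 2.41 to 3.91, and Mir24-1 held 0 to 15.5 per 1000 reads of Aopep, against 46.9 to 61.0. In these 5 rows the sides did not overlap. Mir128-1, the other called row with a tested protein-coding host, held 0 to 0.263 per 1000 reads of R3hdm1, against 0.256 to 1.2, and overlapped. Rows in protein-coding genes that were not called overlapped as well, among them Mir27b, Mir331 and Mir5132.

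The proportion also overlapped between the sides inside the noncoding hosts. Mir770 held 5.96 to 17.3 reads per 1000 reads of Meg3 in AAV libraries and 13.2 to 17.6 in the others. Mir421 held 0 to 27.4 per 1000 reads of Ftx in AAV libraries and 25.7 to 33.4 in the others, and Mir374 held 0 to 20.6 and 15.7 to 36.7. Over the pooled reads of a side the proportion was 11.6 in AAV libraries and 15.2 in the others for Mir770, 14.3 and 28.8 for Mir421, and 9.75 and 20.8 for Mir374. For Mir421 the overlap rests on AAV-GFP 1 alone, since the other AAV libraries held 23.8 or less. Mir568 held 40.0 to 64.1 reads per 1000 reads of Zbtb20, against 66.0 to 111, and did not overlap, although the row itself was not called. Over the 28 pairs of a row with at least 20 reads and a host in the table, 10 had the AAV libraries below all the others, 18 overlapped and none lay above. These counts depend on the measure. With the planned log2 ratio, which adds 0.5 CPM, 5 pairs lay below, 4 lay above and 19 overlapped. No share over other pairs of genes was computed beside these counts. Whether the reads of a row or of its host lie in introns or exons was not examined. The counting rule for reads that overlap a row and its host is not given in the sources used here.

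**Figure D5:**
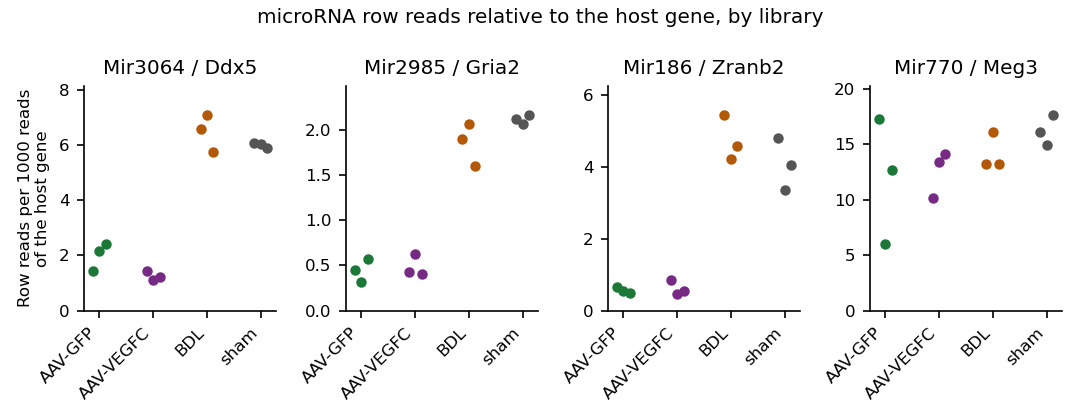
Reads on 4 microRNA rows per 1000 reads of the surrounding gene in each library. For Mir3064, Mir2985 and Mir186 all 6 AAV libraries lie below all 6 others, and for Mir770 in Meg3 they overlap (5.96 to 17.3 against 13.2 to 17.6).

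Genes that make or use microRNAs were read from a list of 43 names, of which 31 genes were found and 30 tested. In AAV libraries against libraries without vector 14 fell and none rose (beside 15.2% of all genes lower), with a median log2 fold change of -0.22. Their changes were small beside those of the rows. The largest was that of Ddx17, a helicase of the Drosha complex (-0.92 ± 0.06, adjusted p = 4.3e-06). Drosha itself fell by 0.33 on the log2 scale (SE 0.06, adjusted p = 0.00202), at 124 ± 10.4 CPM against 156 ± 2.34 CPM (SD, n = 6 each), Dgcr8 by 0.24 (SE 0.05, adjusted p = 0.00446) and the export factor Xpo5 by 0.21 (SE 0.07, adjusted p = 0.0455). All 4 Argonaute genes fell, from Ago4 (-0.73 ± 0.14, adjusted p = 0.003) and Ago3 (-0.72 ± 0.08, adjusted p = 9.13e-05) through Ago2 (-0.61 ± 0.09, adjusted p = 0.000721) to Ago1 (-0.32 ± 0.07, adjusted p = 0.00833). Zcchc11, which adds uridines to the let-7 precursor, fell (-0.69 ± 0.08, adjusted p = 0.000173), as did Tnrc6a, the Argonaute partner in silencing (-0.65 ± 0.09, adjusted p = 0.000578). Against BDL alone, 8 genes of the list fell with AAV-GFP (beside 5.2%) and 9 with AAV-VEGFC (beside 7.02%), and Drosha was among both (adjusted p = 0.0233 and 0.0457). No member was called between BDL and sham or between the vectors. Dicer1 was not analysed here.

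Of 27 long noncoding and structural RNAs listed, 8 were found and 7 tested. In AAV libraries against libraries without vector 4 fell and 1 rose (beside 15.2% of all genes lower and 13.1% higher), and against BDL 3 fell and 1 rose with each vector. Besides Meg3, these fell over all 12 libraries: Snhg11, a neuronal small nucleolar RNA host (-2.51 ± 0.12, adjusted p = 6.04e-07), Miat (-1.93 ± 0.12, adjusted p = 2.83e-06) and Gas5 (-0.46 ± 0.14, adjusted p = 0.0307). Rmrp, the RNA of the RNase that processes ribosomal RNA, rose (1.69 ± 0.26, adjusted p = 0.00103). Of 24 rows of replication-type histone genes, whose messages lack a poly(A) tail, 12 were tested and 4 rose (beside 13.1%), whereas against BDL 1 rose with each vector (beside 0.988% with AAV-GFP and 2.91% with AAV-VEGFC).

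The rows below the filter were also lower on the whole. The 427 untested rows, 214 of them with reads, summed to 2.39 ± 0.218 CPM in AAV libraries and 5.98 ± 0.707 CPM in libraries without vector (SD, n = 6 each). Of the 83 untested rows with at least 10 reads, 65 had a lower mean in the AAV libraries (78.3%), beside 513 of all 951 untested rows with at least 10 reads (53.9%). The let-7 rows with Mir98, a family of 12 rows that restrains growth genes and of which 9 share the seed GAGGUAG, summed to 0.155 ± 0.0591 CPM in AAV libraries and 0.56 ± 0.185 CPM in the others, with 43 and 160 reads. Mirlet7b, the most abundant of them, held 0, 0 and 0 reads with AAV-GFP, 1, 2 and 0 with AAV-VEGFC, 5, 15 and 4 in BDL and 17, 6 and 4 in sham. Mir221, a vessel and growth-associated microRNA, had no read in any AAV library and 3 to 6 in each of the others, which is at least 8.48-fold lower, and Mir378 had none and 1 or 2 in each of the others. Rows with few reads did not all follow: Mir101a held 1 to 9 reads in AAV libraries and 1 or 2 in the others, and Mir3102 held 3 to 7 and 4 to 8.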

How the data were processed

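Per the labels' protocols, Trizol was used to extract the RNA and a TruSeq RNA kit to build the libraries. Per the submitters' processing notes, FastQC, Trimmomatic 0.36, HISAT2 and featureCounts were used on the rn6 build. Their settings and strandedness are not given in the sources here. What the authors deposited were whole-number counts per gene symbol, with no normalization. CPM were computed here from these deposited counts with TMM factors. The sequences and the genes around each hairpin were read from RefSeq (GRCr8), so that a host in rn6 could differ, and no coordinates are given.

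R 4.3.3 with edgeR 4.0.16 kept genes with filterByExpr by group (minimum count 10, above 0.213 CPM in 3 libraries) and fitted 1 model of 12 libraries and 4 group means. SE is the fold change over the root of the quasi-likelihood F. Calls needed an adjusted p under 0.05. The fit was tested on simulated counts first. The floor for a group at 0 is 3 reads over the group. Alternatives used DESeq2 1.42.0 and limma 3.58.1. Python 3.11.15 and matplotlib 3.10.9 drew the figures.

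The members and lists were chosen with earlier results of these data known. Values per library were given for rows called in any comparison, the 5 with the smallest p in each, the 5 most abundant and those opposite to the majority, with their hosts. The log2 ratio of row to host was planned with 0.5 CPM added, which outweighs rows below that level (4 called rows then lay below in all AAV libraries, and 4 rows, called Mir421 and Mir374 among them, lay above), so reads per 1000 host reads were added after seeing the data. Rows with few reads, and the untested rows named, were given by range or were chosen after their values were seen. Replicates of 1 group never agreed within sampling noise. Samples that share a number did not deviate together: over 18 pairs the correlation of deviations lay between -0.128 and 0.0686.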

Additional observations from a re-analysis of the deposited data

How the results depend on the processing

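Against libraries without vector the 14 calls became 30 of 243 rows with no filter (12.3%, beside 13.2% of all genes) and 4 of 6 with at least 1 CPM in 3 libraries; leaving out 1 library gave 13 to 17. Mir3593 was the only one of the 14 to lose its call in a setting in which it was tested. The 9 calls with AAV-GFP became 7 of 243 with no filter, 4 at 1 CPM, and 5 to 7 without 1 library; 5 kept their call wherever they were tested (Mir770, Mir3064, Mir2985, Mir186 and Mir1188, the last not tested at 1 CPM). The 11 calls with AAV-VEGFC became 10 of 243 with no filter, 4 at 1 CPM, 5 in a fit of the compared groups and 6 to 10 without 1 library; the first 4 of those and Mir421, not tested at 1 CPM, kept their call wherever tested. With the replicate number as a block they were 7 (beside 5.44% of all genes). The numbers do not pair the samples, as none of 18 correlations exceeded 0.1. For AAV-VEGFC the share of all genes called lower moved too, from 2.39% in the fit of the compared groups to 10.1% without AAV-VEGFC 1. BDL against sham gave 0 under every setting, and AAV-VEGFC against AAV-GFP gave 0 except for 1 (Mir3064) without sham 2, AAV-GFP 1 and AAV-VEGFC 1. The causes were not tested. Signs turned only among rows near 0. Without 1 library, Mir632 ranged from -1 (AAV-VEGFC 2) to 0.61, Mir22 from -0.06 (AAV-GFP 3 or AAV-VEGFC 1; -0.03 for BDL 3) to 0.14, and Mir124-2 from -0.39 to 0.05 (BDL 1; 0.01 for AAV-VEGFC 2). Mir22 had -0.03 without the 3 libraries named, and Mir124-2 had 0.02 with limma voom. Depth limits these results: most rows held under 1 CPM, so a change in a row of 10 reads or fewer is often not detectable.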

Other observations

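Mir155hg, the host transcript of the immune-cell microRNA Mir155, had 4, 0 and 0 reads with AAV-GFP, 3, 3 and 0 with AAV-VEGFC and 0 in all BDL and sham libraries. Its level is at the edge of detection, and the row Mir155 itself held no read in any library. The summed level of 5 microglia markers was 226 to 361 CPM in AAV libraries and 180 to 237 CPM in the others, and its part in this row was not tested.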
